A study of Mus musculus with 9 samples.

Results

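The genes described here are the ubiquitin-specific proteases (USPs) of mouse cardiac fibroblasts, taken as every gene of the deposited expression table whose symbol is Usp followed by a number and optional letters. A few family genes were left out by that rule and are not analysed here. It gave 55 of 56953 genes. The genes were selected on their symbols alone, but the family was chosen by the measured TPM of Usp16, which was known to be high in the virus group Ad-JP2, so the Ad-JP2 levels below are a description. Calls that involve Ad-JP2 are counted beside the share of all genes called, and nothing is read from them. Of the 55 genes, 41 reached at least 1 TPM (a transcript level scaled by transcript length and by the library's total) in at least 3 libraries and were tested. The other 14 did not. Some of the symbols do not stand for a protease, by what is known of them: Usp6nl encodes a GTPase-activating protein for RAB GTPases, and Usp46os1 and Usp46os2 are RNAs transcribed opposite to Usp46.

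The cells were wild-type primary cultures of the fibroblasts of adult male C57BL/6N mouse hearts, freed by Langendorff perfusion and enzyme digestion and left after cardiomyocytes had been settled out. They were infected at 1000000 pfu per ml with an adenovirus carrying JP2 (Ad-JP2), an adenovirus carrying shJP2 (Ad-shJP2) or the control virus carrying GFP (Ad-GFP). They were harvested 72 h after infection, with 3 polyA libraries in each of the 3 groups, so every group, controls included, was virus-infected. JP2 is junctophilin-2, encoded by Jph2, a protein that holds the plasma membrane close to the calcium store of the endoplasmic reticulum. The labels do not say whether the libraries of a group came from separate cultures or how many mice were used, so p-values measure the spread between these libraries, which may be technical.

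Ubiquitin is a small protein that enzymes attach to lysines of other proteins, where it marks them for the proteasome, for sorting at endosomes or for a change of partners. USPs are the largest family of deubiquitinases. They are cysteine proteases that cut the bond between ubiquitin and its target, so that a target is stabilised, recycled or switched back. Different members act on histones, DNA repair proteins, cell surface receptors, TGF-beta receptor signalling and the proteasome itself.

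The family is built around a short stretch of the catalytic domain that holds the active-site cysteine, and its reading frame shows how the members described below resemble each other. Among the 53 members with a protein-coding transcript, that stretch was found by a pattern search of the translated frames in 51. The remaining 2 were Usp39, a spliceosome protein known to lack the catalytic cysteine, and Usp6nl. The following 42 bases of coding DNA, from GENCODE M21 transcripts, have the codon of that cysteine in capitals, and they are shown for the 4 members with the largest log2 differences between Ad-JP2 and Ad-shJP2, for Usp46, which fell most in Ad-shJP2, and for Usp5, the most abundant member.
Usp16: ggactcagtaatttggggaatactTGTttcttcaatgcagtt
Usp8: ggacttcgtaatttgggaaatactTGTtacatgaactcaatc
Usp47: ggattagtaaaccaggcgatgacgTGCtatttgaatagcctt
Usp46: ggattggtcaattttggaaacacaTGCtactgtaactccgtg
Usp15: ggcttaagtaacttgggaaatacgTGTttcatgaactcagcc
Usp5: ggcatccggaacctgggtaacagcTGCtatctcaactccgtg
The cysteine codon was number 204 of Usp16, 759 of Usp8, 197 of Usp47, 44 of Usp46, 298 of Usp15 and 335 of Usp5, counted from the start codon of the longest frame. Usp46 thus had its active site close to the start of the protein, while Usp8 carried a long stretch before it.

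Jph2 was read first, as a check of the labels. It averaged 688 ± 49.9 TPM in Ad-JP2, 119 ± 3.09 TPM in Ad-shJP2 and 129 ± 2.44 TPM in Ad-GFP (SD, n = 3 each). Ad-JP2 was thus 5.32-fold above Ad-GFP. The libraries labelled Ad-shJP2 had 7.58% less Jph2 than Ad-GFP, a log2 fold change of -0.11 that was not called (limma adjusted p = 0.072). An exact two-sided permutation test gave 0.1, the smallest p that 3 against 3 libraries allow. Directions drawn from Ad-shJP2 below therefore compare libraries labelled so, with nearly the control level of Jph2 mRNA. Depth, recovered approximately from the steps of low values, was 36.9 to 41.8 M reads in Ad-JP2, 21.2 to 33.3 M reads in Ad-shJP2 and 40.3 to 45.8 M reads in Ad-GFP.

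Fibroblast marker genes other than Lum (0.053 to 2.1 TPM) were abundant in every library. The 10 fibroblast marker genes summed to 11257 to 12010.2 TPM in Ad-JP2, 7491.4 to 7725.5 TPM in Ad-shJP2 and 11394 to 11498.2 TPM in Ad-GFP. Vim made up most of that sum, with means of 7310, 5020 and 7260 TPM in the same order of groups. The 12 macrophage and leukocyte markers also had a high sum, with 2518.6 to 2560.2, 3186.7 to 3234.8 and 2732.5 to 2772.1 TPM in the same order of groups. Most of it was Lyz2, with means of 1560, 2020 and 1730 TPM, while Ptprc had means of 2.07, 0.24 and 0.592 TPM. Cd3e, a T cell marker, was at 0 in every library. In Ad-shJP2 against Ad-GFP, 9 of 10 fibroblast markers fell and 1 rose, and 6 of 10 tested macrophage and leukocyte markers rose and 3 fell. Across all tested genes in that comparison, 37.7% fell and 21.8% rose, and the counts of markers are to be read beside these shares. Of the markers of other cell types that were tested there, 4 of 4 for cardiomyocytes fell, 4 of 5 for epicardium and mesothelium fell and 1 rose, 2 of 4 for pericytes and smooth muscle fell and 1 rose, and 2 of 7 endothelial ones fell. Their summed levels were low: cardiomyocyte markers had 39.1 to 45.5 TPM in Ad-JP2, 29.4 to 32.4 TPM in Ad-shJP2 and 46.9 to 47.4 TPM in Ad-GFP, and epicardial and mesothelial markers had 26.8 to 29.1, 22.3 to 25.3 and 25.4 to 26.4 TPM in the same order. In bulk libraries, fewer cells of a type and less RNA per cell cannot be told apart, and the part of these shifts in the USP differences was not tested.

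The summed level of all members was 726 to 744 TPM in Ad-JP2, 528 to 546 TPM in Ad-shJP2 and 621 to 633 TPM in Ad-GFP, with no overlap between groups. That order was not particular to the USPs. Deubiquitinases outside the family, listed below, summed to 908 to 913, 833 to 848 and 852 to 862 TPM in the same order of groups. USP cofactors and partners summed to 768 to 793, 707 to 714 and 734 to 738 TPM. Of the 41 tested members, 15 were called in neither virus group against Ad-GFP. In Ad-JP2 against Ad-GFP, 13 of the 41 tested members were higher and 0 lower, where 13.4% of all 14215 tested genes were called higher and 1.64% lower. That contrast was known when the set was proposed, so nothing is read from its count. In Ad-shJP2 against Ad-GFP, 20 of 41 members fell and 4 rose, which is 48.8% and 9.76% of them, against backgrounds of 37.7% and 21.8%. A call is an adjusted p under 0.05 from limma, with Benjamini-Hochberg adjustment over all tested genes. The median log2 fold change of the members in Ad-shJP2 against Ad-GFP was -0.37, and that of all tested genes was -0.11.

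Set directly against each other, Ad-JP2 and Ad-shJP2 gave 26 calls among the members. There 23 were higher and 3 lower in Ad-JP2, where 40.3% and 24.1% of all tested genes were called. The F-test over the 3 groups called 25 of 41 members, where the background was 63.7%. In 16 of 41 members (39.0%), every Ad-JP2 library stood above every Ad-GFP library and every Ad-GFP library above every Ad-shJP2 library. That full order was found in 16.6% of all tested genes. The order rests in part on the Ad-JP2 levels, so nothing is read from the members' count.

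The scaling of the libraries bears on how many genes are called in each direction. In Ad-shJP2 against Ad-GFP the whole table had 3093 genes higher and 5353 lower as deposited. With median-of-ratios scaling it had 4157 higher and 4333 lower, and with quantile normalization 4233 higher and 3849 lower. In Ad-JP2 against Ad-shJP2 the split was 5731 higher and 3421 lower, and it became 4735 and 4634, and then 4026 and 5570. In Ad-JP2 against Ad-GFP it was 1902 and 233, then 1807 and 399, then 1462 and 748. Quantile normalization put the median log2 fold change of all genes in Ad-shJP2 against Ad-GFP at 0.02. The members' median there was -0.15 after quantile normalization and -0.26 when libraries were scaled by medians of ratios.

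**Figure D1:**
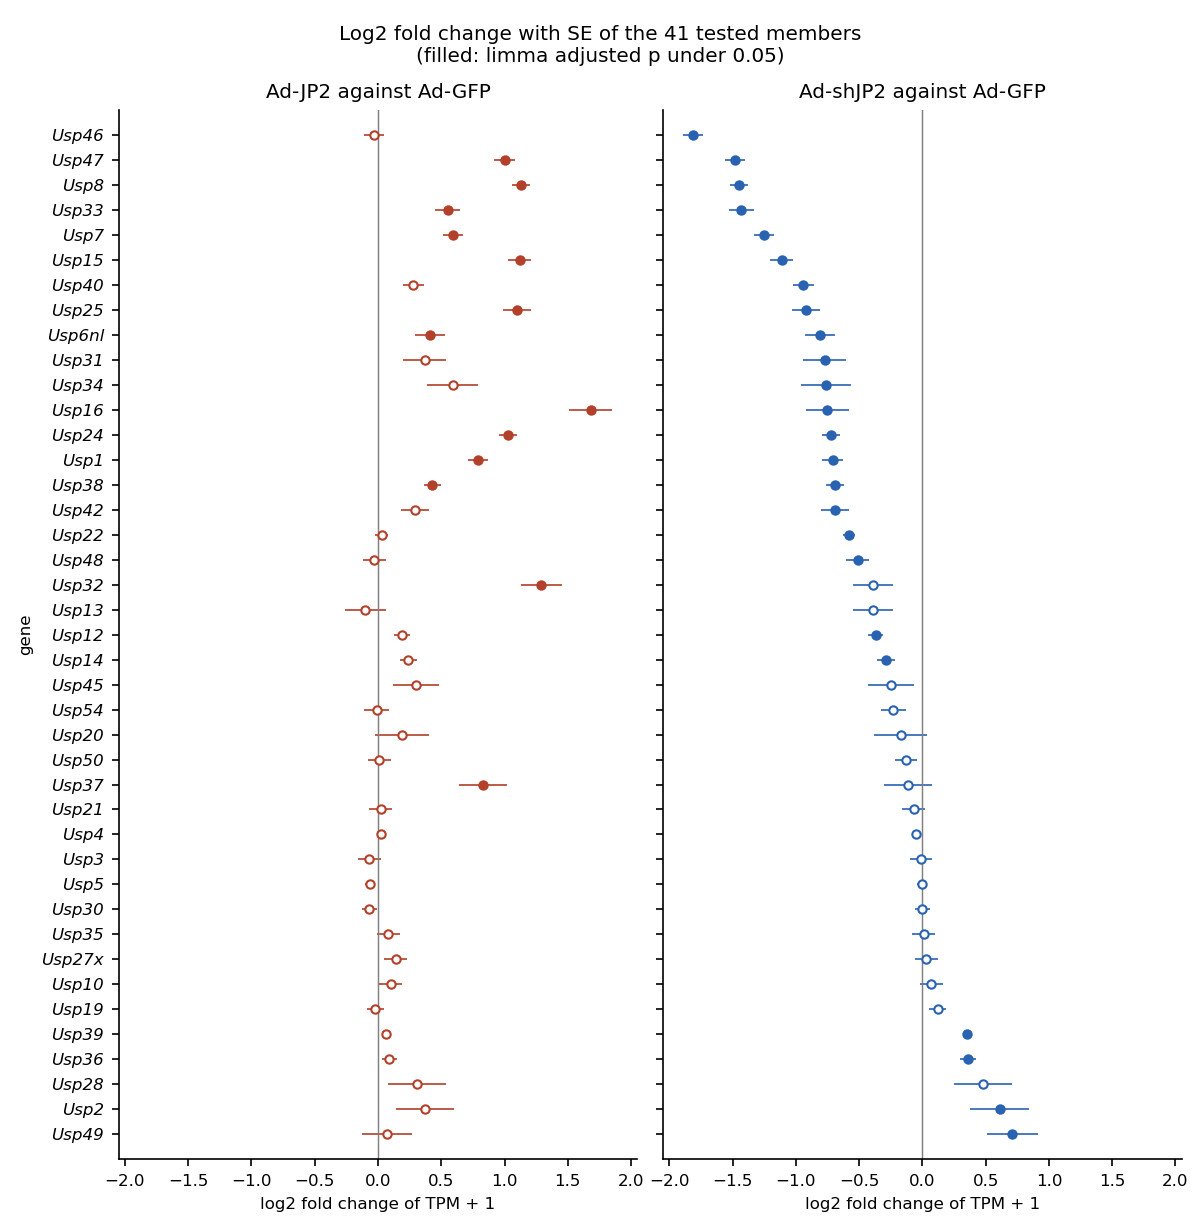
Log2 fold changes of TPM + 1 (x axis) with their standard errors for the 41 tested members (rows), in Ad-JP2 against Ad-GFP and in Ad-shJP2 against Ad-GFP, with filled points for adjusted p under 0.05. In Ad-shJP2, 20 members lie left of 0 as filled points and 4 right of it, with Usp46 lowest at -1.81, and in Ad-JP2 all 13 filled points lie right of 0.

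Members that act on chromatin come first, since Usp16 is one of them. Usp16 removes ubiquitin from histone H2A, a mark laid down by Polycomb complexes. Usp16 had 19.0, 18.1 and 21.6 TPM in the Ad-JP2 libraries, 2.24, 2.36 and 4.10 TPM in Ad-shJP2 and 4.69, 5.35 and 6.34 TPM in Ad-GFP. The 3 groups did not overlap, and the Ad-JP2 libraries stood far above the rest. Ad-JP2 averaged 19.6 ± 1.82 TPM, 3.59-fold above the 5.46 ± 0.831 TPM of Ad-GFP, a log2 fold change of 1.68 that is given as a description. Usp16 fell to 2.90 ± 1.04 TPM in Ad-shJP2 against the control virus, a log2 fold change of -0.75 (SE 0.17, adjusted p = 0.0049). It rested on about 33 to 92 reads per Ad-shJP2 library, against 141 to 176 in Ad-GFP.

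The other histone enzymes did not follow one direction. Usp22, the H2B deubiquitinase of the SAGA coactivator complex, had 38.0, 36.1 and 35.0 TPM in Ad-JP2, 22.6, 24.5 and 23.3 TPM in Ad-shJP2 and 35.4, 37.0 and 34.4 TPM in Ad-GFP. It fell 1.52-fold in Ad-shJP2 (log2 fold change -0.58, SE 0.05, adjusted p = 8.4e-06), while the Ad-JP2 and Ad-GFP libraries overlapped. Usp36, an enzyme of the nucleolus, had 9.02, 8.03 and 8.61 TPM in Ad-JP2, 10.5, 11.0 and 10.2 TPM in Ad-shJP2 and 7.96, 7.61 and 8.39 TPM in Ad-GFP. It rose in Ad-shJP2 by 0.36 on the log2 scale (SE 0.06, adjusted p = 0.0011), with all 3 libraries above all 3 controls. Of the 8 tested members of this group, 3 fell in Ad-shJP2 (Usp16, Usp22, Usp42) and 2 rose (Usp36, Usp49), where 37.7% and 21.8% of all tested genes did. Corrected for GC content and length as described below, 2 were lower and 3 higher, and Usp42 was no longer called (-0.26). Under that correction 3635 of 14025 genes were lower and 4078 higher in Ad-shJP2. The level of Usp3, another H2A enzyme, was 15.5 ± 1.47 TPM in Ad-JP2, 16.2 ± 1.21 TPM in Ad-shJP2 and 16.4 ± 1.38 TPM in Ad-GFP.

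The members linked to DNA repair, replication and p53 were led by Usp47, Usp7 and Usp1. Usp47, which removes ubiquitin from the repair enzyme DNA polymerase beta, had 34.5, 34.8 and 34.2 TPM in Ad-JP2, 5.64, 4.62 and 5.93 TPM in Ad-shJP2 and 16.8, 16.3 and 17.3 TPM in Ad-GFP. Libraries of a group lay close together and the groups were far apart. The fall in Ad-shJP2 was 3.11-fold (log2 fold change -1.48, SE 0.08, adjusted p = 3.9e-07). Ad-JP2 stood 2.06-fold above Ad-GFP and 6.40-fold above Ad-shJP2.

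Usp7, which stabilises both p53 and its ubiquitin ligase Mdm2, had 25.6, 26.7 and 26.7 TPM in Ad-JP2, 7.29, 5.74 and 6.98 TPM in Ad-shJP2 and 17.1, 17.4 and 17.1 TPM in Ad-GFP. Its fall in Ad-shJP2 was 2.58-fold (log2 fold change -1.25, SE 0.08, adjusted p = 1e-06). Usp1, which clears ubiquitin from the repair proteins FANCD2 and PCNA, had 18.4, 18.6 and 16.6 TPM in Ad-JP2, 5.61, 5.68 and 5.64 TPM in Ad-shJP2 and 9.96, 8.74 and 11.0 TPM in Ad-GFP. Usp1 fell 1.75-fold in Ad-shJP2 (log2 fold change -0.71, SE 0.08, adjusted p = 7e-05). In this group 4 of 8 tested members fell in Ad-shJP2 and 0 rose, where 37.7% and 21.8% of all tested genes did, and 3 were higher in Ad-JP2 than in Ad-GFP (13.4% of all). After the correction for GC content and length, 3 were lower and 1 higher in Ad-shJP2, and 2 were higher in Ad-JP2. Of 14025 genes so corrected, 3635 were lower and 4078 higher in Ad-shJP2, and 714 were higher in Ad-JP2. Usp10, which acts on p53 in the cytoplasm, had means of 22.1 TPM in Ad-JP2, 21.6 TPM in Ad-shJP2 and 20.5 TPM in Ad-GFP, with overlapping libraries.

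Members of endosomes and receptor traffic mostly fell in Ad-shJP2. There 6 of the 8 tested members fell and 0 rose, where 37.7% of all tested genes fell, and their summed level was 26.3 to 29.3 TPM, against 57.6 to 60.2 TPM in Ad-GFP. In Ad-JP2 the sum was 76.4 to 82.3 TPM. After the correction for GC content and length described below, 3 of the 8 were still lower in Ad-shJP2 and 0 higher. The whole table then had 3635 of 14025 genes lower and 4078 higher. Usp8 works with the ESCRT machinery on endosomes and decides whether receptors such as EGFR are recycled or degraded. Usp8 had 13.6, 13.4 and 12.5 TPM in Ad-JP2, 1.46, 1.34 and 1.30 TPM in Ad-shJP2 and 5.28, 5.53 and 5.57 TPM in Ad-GFP. The 3 groups were far apart. The fall in Ad-shJP2 was 4.00-fold (log2 fold change -1.45, SE 0.07, adjusted p = 2.2e-07), and Ad-JP2 stood 2.41-fold above Ad-GFP and 9.64-fold above Ad-shJP2, the largest such ratio among the tested members. The annotated gene Usp50 overlaps Usp8 on the opposite strand, and whether the counting used strand is not given in the sources used here. Usp50 itself averaged 29.9 TPM in Ad-JP2, 27.1 TPM in Ad-shJP2 and 29.6 TPM in Ad-GFP, with no call.

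Usp46 had another pattern. It shares its activating partner Wdr48 with Usp12 and Usp1, and it is known for acting on glutamate receptors in neurons. Usp46 had 17.6, 20.0 and 17.6 TPM in Ad-JP2, 4.70, 4.54 and 4.63 TPM in Ad-shJP2 and 20.6, 18.5 and 17.3 TPM in Ad-GFP. The Ad-JP2 and Ad-GFP libraries overlapped, and all Ad-shJP2 libraries stood far below both. The fall in Ad-shJP2, 4.07-fold with a log2 fold change of -1.81 (SE 0.08, adjusted p = 1.1e-07), was the largest log2 fall among the tested members.

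Usp33 recycles the beta-2 adrenergic receptor to the cell surface together with its close relative Usp20. Usp33 had 9.50, 9.01 and 9.19 TPM in Ad-JP2, 1.89, 1.56 and 1.36 TPM in Ad-shJP2 and 6.39, 6.24 and 5.34 TPM in Ad-GFP. The fall in Ad-shJP2 was 3.74-fold (log2 fold change -1.43, SE 0.10, adjusted p = 2e-06). Usp32, an enzyme of late endosomes, averaged 5.02 ± 0.348 TPM in Ad-JP2, 0.904 ± 0.352 TPM in Ad-shJP2 and 1.49 ± 0.440 TPM in Ad-GFP. That put Ad-JP2 3.37-fold above Ad-GFP, while the Ad-shJP2 and Ad-GFP libraries overlapped (adjusted p = 0.069).

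TGF-beta signalling drives fibroblasts to become myofibroblasts, and Usp15 and Usp4 both remove ubiquitin in that pathway, at the receptor and at SMAD proteins. Usp15 had 16.2, 16.8 and 16.9 TPM in Ad-JP2, 3.28, 2.48 and 2.55 TPM in Ad-shJP2 and 6.83, 7.45 and 7.0 TPM in Ad-GFP. All 3 groups were apart, and the fall in Ad-shJP2 was 2.56-fold (log2 fold change -1.11, SE 0.09, adjusted p = 5.2e-06). Its close relative Usp4 had 72.7, 73.0 and 71.2 TPM in Ad-JP2, 70.1, 67.8 and 69.3 TPM in Ad-shJP2 and 72.6, 73.3 and 68.4 TPM in Ad-GFP. Usp4 was the far more abundant of the pair and was not called in any comparison (log2 fold change in Ad-shJP2 -0.05, SE 0.03, adjusted p = 0.26). Usp34, which acts on axin in Wnt signalling, fell in Ad-shJP2 by 0.76 on the log2 scale (SE 0.20, adjusted p = 0.0084) at a low level, with 0.328 to 0.505 TPM in Ad-shJP2 against 1.15 to 1.80 TPM in Ad-GFP. Corrected for GC content and length, it was at 0.03 and not called. Usp2, known for stabilising cyclin D1 and for its daily rhythm, rose by 0.61 (SE 0.23, adjusted p = 0.044), although its Ad-shJP2 and Ad-GFP libraries overlapped.

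The proteasome, ER and mitochondrial members held the 3 most abundant USPs outside the TGF-beta group. Usp5, which takes apart free ubiquitin chains, had 101, 99.5 and 93.2 TPM in Ad-JP2, 101, 102 and 104 TPM in Ad-shJP2 and 104, 98.6 and 103 TPM in Ad-GFP. Usp19, a membrane enzyme of the ER, had 51.6, 46.2 and 44.6 TPM in Ad-JP2, 57.5, 49.8 and 49.6 TPM in Ad-shJP2 and 49.3, 47.3 and 47.7 TPM in Ad-GFP. Neither was called (adjusted p in Ad-shJP2 against Ad-GFP 0.97 for Usp5 and 0.18 for Usp19), but median-of-ratios scaling put both higher in Ad-shJP2, Usp5 by 0.12 (adjusted p = 0.015) and Usp19 by 0.23 (adjusted p = 0.016). Usp14, which trims ubiquitin at the proteasome, had 72.1, 82.3 and 80.0 TPM in Ad-JP2, 54.3, 48.8 and 58.7 TPM in Ad-shJP2 and 67.3, 63.7 and 67.3 TPM in Ad-GFP. It fell 1.23-fold in Ad-shJP2 (log2 fold change -0.29, SE 0.07, adjusted p = 0.0063), a direction that turned when the values were corrected for base composition and length, as given below, and a call that was lost with median-of-ratios scaling (adjusted p = 0.064). Usp30, which opposes mitophagy at the outer mitochondrial membrane, averaged 15.4 ± 0.788 TPM in Ad-JP2, 16.2 ± 0.395 TPM in Ad-shJP2 and 16.2 ± 1.06 TPM in Ad-GFP.

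Usp24, placed in the same group, had 7.84, 8.15 and 7.74 TPM in Ad-JP2, 1.47, 1.69 and 1.80 TPM in Ad-shJP2 and 3.40, 3.32 and 3.34 TPM in Ad-GFP. It fell in Ad-shJP2 by 0.72 on the log2 scale (SE 0.07, adjusted p = 3.5e-05), and with Usp14 it made up the 2 of 6 tested members of the group that fell (37.7% of all tested genes). With the same correction 0 were lower and 1 higher, where 3635 of 14025 genes were lower and 4078 higher.

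Innate immune and NF-kB signalling was represented by Usp25, Usp38, Usp40 and Usp35. Their summed level was 26.6 to 26.8 TPM in Ad-JP2, 8.47 to 9.03 TPM in Ad-shJP2 and 16.3 to 17.0 TPM in Ad-GFP. Usp25, which acts on TRAF adaptor proteins, had 10.8, 10.5 and 11.1 TPM in Ad-JP2, 1.44, 2.12 and 2.17 TPM in Ad-shJP2 and 4.51, 4.75 and 4.2 TPM in Ad-GFP. It fell 2.35-fold in Ad-shJP2 (log2 fold change -0.92, SE 0.11, adjusted p = 6.7e-05). Usp38 had 7.32, 7.23 and 7.30 TPM in Ad-JP2, 2.71, 2.76 and 2.99 TPM in Ad-shJP2 and 5.43, 5.02 and 5.04 TPM in Ad-GFP. With Usp40 (log2 fold change -0.94, adjusted p = 1.4e-05), 3 of these 4 members fell in Ad-shJP2, where 37.7% of all tested genes did. With GC content and length corrected for, 1 of the 4 was lower, as were 3635 of 14025 genes.

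Usp39, the spliceosome member without the catalytic cysteine, went the other way. It had 37.5, 39.7 and 39.3 TPM in Ad-JP2, 46.5, 47.8 and 48.2 TPM in Ad-shJP2 and 37.1, 36.9 and 37.4 TPM in Ad-GFP. It rose 1.28-fold in Ad-shJP2 (log2 fold change 0.35, SE 0.03, adjusted p = 2.8e-05), a small difference with narrow spread. Usp37, which acts on cyclin A and was in no role group, averaged 1.67 ± 0.486 TPM in Ad-JP2, 0.381 ± 0.149 TPM in Ad-shJP2 and 0.509 ± 0.311 TPM in Ad-GFP.

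**Figure D2:**
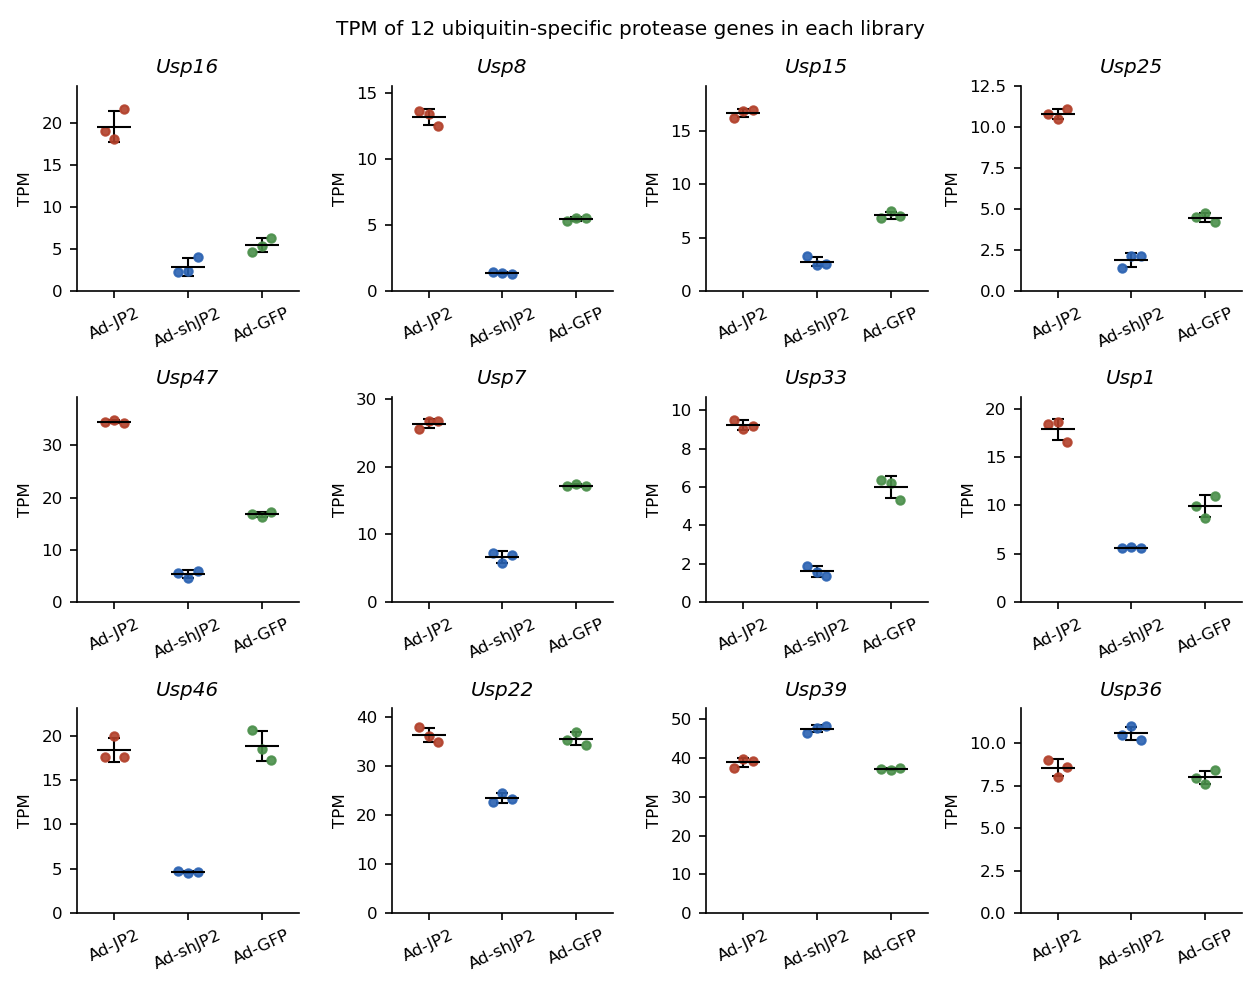
TPM of named members (y axis, a panel per gene, each from 0 on its own scale) in the Ad-JP2, Ad-shJP2 and Ad-GFP libraries, with a point per library and lines for the group mean and SD (n = 3). Usp16 and Usp8 are highest in Ad-JP2, Usp46 and Usp22 are low in Ad-shJP2 only, and Usp39 and Usp36 are highest in Ad-shJP2.

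Several members are close relatives of each other, and within such pairs the levels differed. Usp33 fell by 1.43 on the log2 scale in Ad-shJP2, and its relative Usp20 had a value of -0.17 (adjusted p = 0.50). Usp46 fell by 1.81, and Usp12, its near copy, fell by 0.37 (SE 0.06, adjusted p = 0.00073), a call that ended after the correction for GC content and length (0.02). Usp25 fell by 0.92, and Usp28 had 0.48 (adjusted p = 0.10), and 0.79 with a call after that correction. Usp38 fell by 0.69, and Usp35 had 0.01 (adjusted p = 0.95). Usp42 fell by 0.69, and Usp36 rose by 0.36. Under the same correction Usp25 (-0.28), Usp38 (-0.12) and Usp42 (-0.26) lost their calls. Usp33 (-0.79), Usp46 (-1.20) and Usp36 (0.46) kept theirs. No test was made of the difference between relatives, and reads shared by near-identical stretches could be divided between them by the counting.

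Combining both contrasts, 11 members were called higher in Ad-JP2 and lower in Ad-shJP2, both against the same Ad-GFP libraries: Usp1, Usp6nl, Usp7, Usp8, Usp15, Usp16, Usp24, Usp25, Usp33, Usp38 and Usp47. They were 26.8% of the tested members, and 10.8% of all 14215 tested genes were called so. Nothing is read from that count, since the Ad-JP2 calls belong to the contrast the family was chosen by. Another 9 fell in Ad-shJP2 with no call in Ad-JP2, namely Usp12, Usp14, Usp22, Usp31, Usp34, Usp40, Usp42, Usp46 and Usp48. Usp32 and Usp37 were called higher in Ad-JP2 and had no call in Ad-shJP2. The 4 that rose in Ad-shJP2 (Usp2, Usp36, Usp39, Usp49) had no call in Ad-JP2. The remaining 15, among them Usp3, Usp4, Usp5, Usp10 and Usp19, were called in neither.

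Base composition moved with these differences. The tested members had a median GC content of 47.3% and a median deposited length of 3876 bases, against 50.4% and 2002 bases for all tested genes with a value. Across the 41 members, Spearman's correlation of the log2 fold change with GC content was 0.69 in Ad-shJP2 against Ad-GFP, and it was 0.35 over 14025 tested genes. In Ad-JP2 against Ad-GFP it was -0.60 over the members and -0.42 over the genes. These are correlations across genes that share the same libraries, and genes are not independent replicates.

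The split by GC content shows the same in counts. Of the 11 members under 45% GC, 8 fell in Ad-shJP2, and of the 30 others 12 fell and 4 rose. Over all tested genes, 58.5% of those under 45% GC were called lower in Ad-shJP2, against 32.5% of the rest. In Ad-JP2 against Ad-GFP, 38.6% of genes under 45% GC were called higher, against 7.05% of the rest. The part of base composition in the USP differences was not tested apart from the corrected values that follow.

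**Figure D3:**
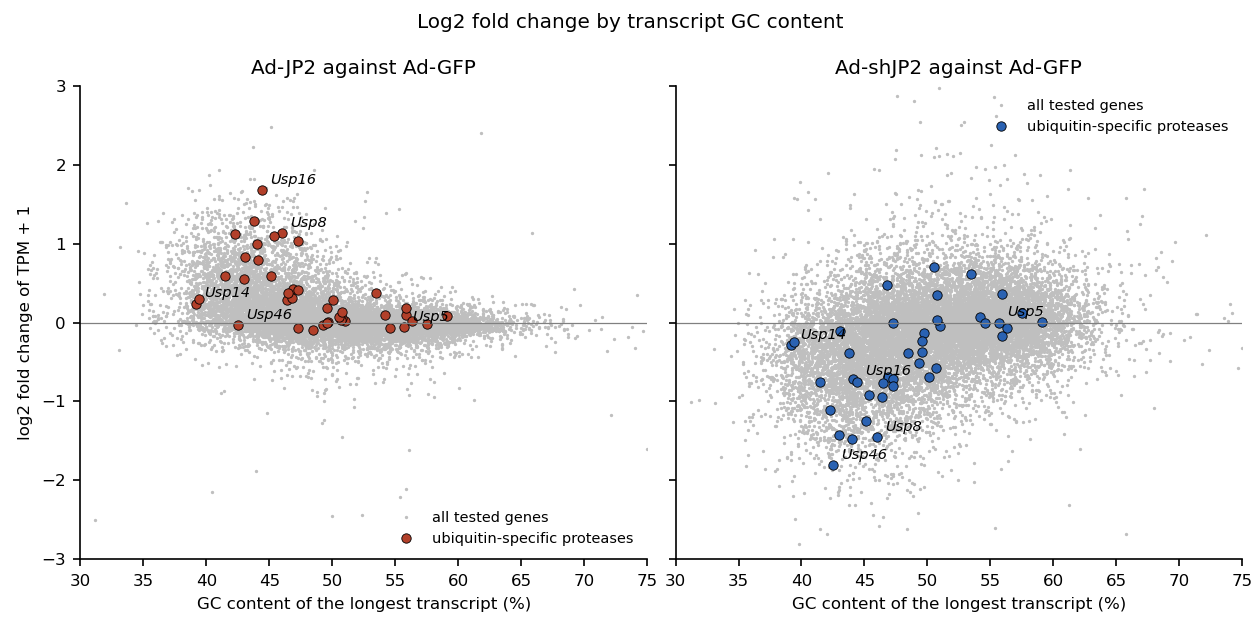
Log2 fold change of TPM + 1 (y axis) against transcript GC content in percent (x axis) for Ad-JP2 against Ad-GFP and Ad-shJP2 against Ad-GFP, with all tested genes in grey and the 41 members in colour; 3 and 7 genes lie outside the axes. Members with low GC content lie higher in the first panel and lower in the second, and so does the grey cloud.

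When each library's log2 values were corrected for a smooth trend on GC content and deposited length, fewer members were called and the calls were more evenly divided. In Ad-shJP2 against Ad-GFP, 10 members were lower and 9 higher after that correction, with a median of -0.01. The whole table then had 4078 genes higher and 3635 lower among 14025. In Ad-JP2 against Ad-GFP, 8 members were higher and 1 lower, where the whole table had 714 higher and 550 lower. In Ad-JP2 against Ad-shJP2, 15 members were higher and 9 lower, where the whole table had 3858 higher and 4550 lower. Usp1, Usp8, Usp15, Usp16 and Usp47 were the 5 members still called higher in Ad-JP2 and lower in Ad-shJP2 (12.2%). Of the 14025 genes, 3.22% were called so. This count also rests on the Ad-JP2 calls, so nothing is read from it.

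Single members moved by different amounts under that correction. Usp8 had 0.80 in Ad-JP2 and -0.89 in Ad-shJP2, both against Ad-GFP, and Usp47 had 0.47 and -0.77. Usp16 had 1.60 and -0.55. Usp46 had -1.20 in Ad-shJP2 and, called lower, -0.50 in Ad-JP2. Usp24 and Usp38 had -0.03 and -0.12 in Ad-shJP2 and lost their calls there, as did Usp25 with -0.28. Usp14 turned to 0.22 and Usp4 to 0.14 in Ad-shJP2, both called higher.

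The deposited length of some members was much shorter than their longest annotated transcript, so the length used in the correction matters for them. It was 1346 bases for Usp16, against 3205 in GENCODE M21, and 1713 for Usp15, against 11525. With the longest annotated length in place of the deposited one, a choice made after the data were seen, Usp16 had -0.35 in Ad-shJP2 against Ad-GFP and was not called (adjusted p = 0.12). Usp1, Usp7, Usp8, Usp15, Usp25 and Usp47 then were the members called higher in Ad-JP2 and lower in Ad-shJP2 (14.6%), as were 3.96% of 14025 genes. Again the Ad-JP2 calls enter the count, and nothing is read from it.

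**Figure D4:**
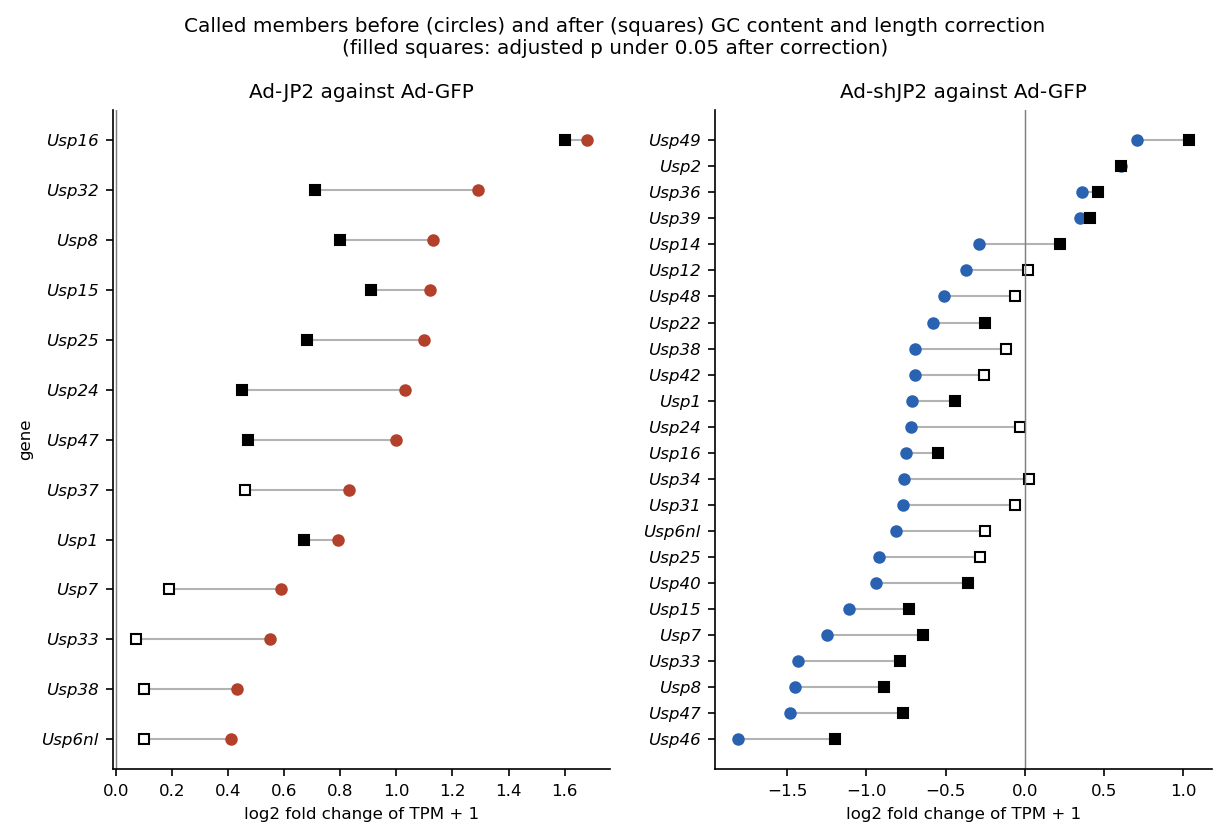
Log2 fold changes of TPM + 1 (x axis) of the members called in Ad-JP2 against Ad-GFP and in Ad-shJP2 against Ad-GFP, before (circles) and after (squares) correction for GC content and deposited length, with filled squares for adjusted p under 0.05 after it. Usp16 moves little in Ad-JP2, with 1.60 after and 1.68 before correction, and Usp14 crosses 0 in Ad-shJP2, with 0.22 after and -0.29 before.

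The promoters of Usp16 and Usp8 are shown because these members had the largest ratios of mean TPM between Ad-JP2 and Ad-shJP2. They are the 150 bases upstream of the annotated start, from RefSeq on GRCm38.p6, an older build than the GRCm39 named for the deposited values. Both lie on the plus strand, Usp16 at chr16:87454835-87454984 and Usp8 at chr2:126707178-126707327. Capitals mark the letters CCGGAAG, the core that ETS factors bind, on either strand.
Usp16: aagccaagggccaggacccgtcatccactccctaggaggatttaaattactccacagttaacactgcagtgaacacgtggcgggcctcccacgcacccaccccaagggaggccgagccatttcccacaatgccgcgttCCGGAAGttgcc
Usp8: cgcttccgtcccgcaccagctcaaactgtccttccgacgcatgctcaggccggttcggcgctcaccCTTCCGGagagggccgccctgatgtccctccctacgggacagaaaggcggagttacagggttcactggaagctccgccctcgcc
Of the 55 members, 43 had a promoter in the table, and the 250 bases upstream were searched on both strands. CCGGAAG was in 7 of the 43 (16.3%) and in 7.05% of 27025 promoters, in those of Usp8, Usp11, Usp16, Usp24, Usp30, Usp36 and Usp38. Among these, Usp36 rose in Ad-shJP2, Usp30 was not called and Usp11 was not tested. The GC box letters GGGCGG were in 60.5% of member promoters and 32.9% of all, and CCAAT in 30.2% and 34.5%. Member promoters had a median GC content of 64.0%, against 52.0% for all promoters, and its part in these shares was not tested. TATAAA was in 11.6% and 13%. A match is a run of letters and not a bound site.

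The untested members were mostly at very low levels. Of these 14, 12 stayed below 0.5 TPM in every library. Usp26, Usp17lb and Usp46os1 were at 0 in all 9 libraries, and 3 reads, the limit that a count of 0 allows, would be 0.0219 to 0.0442 TPM for Usp26. That limit covers counting error only. Usp53 was the highest of the untested ones. It had 1.15, 0.782 and 0.948 TPM in Ad-JP2, 0.287, 0.587 and 0.277 TPM in Ad-shJP2 and 0.359, 0.603 and 0.334 TPM in Ad-GFP. Usp11, a relative of Usp4 and Usp15, reached at most 0.691 TPM. The Usp17l genes are near-identical copies whose reads the counting could divide among them, so their values are uncertain.

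Other genes of the ubiquitin system give the surroundings of the family. Of 32 tested deubiquitinases outside the USPs, 10 were higher and 0 lower in Ad-JP2 against Ad-GFP, and 8 rose and 12 fell in Ad-shJP2. Among all tested genes, 13.4% were higher and 1.64% lower in Ad-JP2, and 21.8% rose and 37.7% fell in Ad-shJP2. After the correction for GC content and length, 1 of the 32 was higher and 1 lower in Ad-JP2 against Ad-GFP. In Ad-shJP2, 9 of the 32 were then higher and 6 lower. The whole table of 14025 genes then had 714 higher and 550 lower in Ad-JP2, and 4078 higher and 3635 lower in Ad-shJP2. Cyld, a brake on NF-kB signalling, averaged 12.5 ± 0.787 TPM in Ad-JP2, 1.93 ± 0.417 TPM in Ad-shJP2 and 6.78 ± 0.288 TPM in Ad-GFP, and it fell in Ad-shJP2 by 1.42 on the log2 scale (SE 0.11). The largest log2 values in Ad-JP2 against Ad-GFP were 1.12 for Otud4 and 1.07 for Zranb1.

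Among 24 cofactors and partners of USPs, 6 rose and 8 fell in Ad-shJP2, and 6 were higher and 0 lower in Ad-JP2, where the shares of all tested genes were 21.8% and 37.7% in Ad-shJP2 and 13.4% and 1.64% in Ad-JP2. After the correction for GC content and length the counts turned, to 10 higher and 3 lower in Ad-shJP2 and 1 higher and 5 lower in Ad-JP2. The corrected whole-table counts are those given for the deubiquitinases above. Rnf2 and Bmi1, parts of the Polycomb complex that places the ubiquitin Usp16 removes, were among those that changed. Before correction, Rnf2 averaged 16.3 ± 0.465 TPM in Ad-JP2, 3.64 ± 0.798 TPM in Ad-shJP2 and 11.3 ± 1.33 TPM in Ad-GFP, and Bmi1 averaged 15.7 ± 1.96, 4.08 ± 0.943 and 7.47 ± 0.852 TPM in the same order of groups. Ring1, another Polycomb gene among the 24, averaged 12.9 ± 1.15, 10.6 ± 2.41 and 13.5 ± 3.05 TPM and was not called in any comparison. Pcna, a target of Usp1, rose in Ad-shJP2 by 0.73 on the log2 scale, with 131 ± 1.84 TPM in Ad-shJP2 against 78.6 ± 2.02 TPM in Ad-GFP. Fancd2, another Usp1 target among the 24, averaged 1.63 ± 0.108 TPM in Ad-shJP2 and 1.86 ± 0.201 TPM in Ad-GFP and was not called in any comparison. A relation of either gene to Usp1 was not tested.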

How the data were processed

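The authors deposited TPM per gene for 9 libraries, with a gene length and an effective length. Per the labels' protocols, polyA RNA was made into stranded libraries. The submitters' processing notes list GRCm39, DRAGEN, Salmon and DESeq2 with neither role nor version. TPM is relative, so a few abundant genes can shift all others.

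The 14215 genes that reached 1 TPM in 3 or more libraries entered the test on log2(TPM + 1), which understates changes of low genes, with limma 3.58.1 in R 4.3.3 (3 group means, mean-variance trend, two-sided). Fold ratios are of mean TPM. Members, lists and the naming rule were chosen with earlier results of these data known. Named with all libraries were Usp16, the 5 most abundant members, and per comparison up to 8 called members with the largest rises and falls, mean TPM of at least 5 and groups apart, plus such members called in opposite directions. Usp22 and Usp24 were added after their values were seen. GC content came from the longest GENCODE M21 transcript (98.7% of tested genes) and the correction from loess (span 0.3). Alternatives were a pseudocount of 0.1, no filter, TPM of at least 5, 2 other scalings, only the 2 groups compared, a replicate block, both corrections and leaving out each library. Depth was recovered from steps of TPM times effective length. The script was tested on simulated data. One further gene list is not reported here.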

Additional observations from a re-analysis of the deposited data

How the results depend on the processing

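Most counts of called members kept within 1.5 times of their values under the alternatives listed in the methods, and the exceptions follow. Corrected for GC content and deposited length, members were 8 higher and 1 lower in Ad-JP2 against Ad-GFP, 9 higher and 10 lower in Ad-shJP2 against Ad-GFP, and 15 higher and 9 lower in Ad-JP2 against Ad-shJP2. The whole-table counts under that correction are given in the results. With the longest annotated length instead, added after seeing the data, 2 were lower in Ad-JP2 against Ad-GFP, 9 higher and 12 lower in Ad-shJP2 against Ad-GFP, and 12 lower in Ad-JP2 against Ad-shJP2. The whole table of 14025 genes then had 605 lower, 4073 higher and 3704 lower, and 4549 lower, in the same order. A minimum of 5 TPM left 2 members higher in Ad-shJP2 against Ad-GFP, since fewer genes were tested. In Ad-JP2 against Ad-shJP2, 6 members were lower when libraries were scaled by medians of ratios, and 11 after quantile normalization; the cause was not tested. Among the members named with all libraries, Usp14 and Usp4 changed sign with a call before or after. In Ad-shJP2 against Ad-GFP and in Ad-JP2 against Ad-shJP2, the correction put Usp14 at 0.22 and -0.36 and Usp4 at 0.14 and -0.16. With the longest length Usp14 was at -0.31 in Ad-JP2 against Ad-GFP and at 0.29 and -0.60 in the other comparisons, and Usp4 at 0.09 and -0.09. Of the others, Usp45 turned from 0.54 to -0.85 in Ad-JP2 against Ad-shJP2 under the correction (-0.65 with the longest length), called each time, and Usp54 from an uncalled 0.22 to a called -0.52. With the longest length, Usp3 turned from an uncalled -0.01 to a called 0.43 in Ad-shJP2 against Ad-GFP, and Usp13 from an uncalled 0.29 to a called -0.46 in Ad-JP2 against Ad-shJP2. Usp12, Usp31, Usp34, Usp37 and Usp48 lost a call with a change of sign under a correction. The median log2 fold change of USP members, Ad-shJP2 against Ad-GFP, was -0.12 without a filter and -0.54 with a pseudocount of 0.1.

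Leaving out each library in turn gave 11 to 15 members higher and 0 lower in Ad-JP2 against Ad-GFP, 3 to 5 higher and 20 to 22 lower in Ad-shJP2 against Ad-GFP, 22 to 24 higher and 2 to 4 lower in Ad-JP2 against Ad-shJP2, and 24 to 27 by the F-test. Over the 16 named members, 9 of 864 recomputed values turned sign with a call before or after, 9 lost a call and 14 gained one; the other 832 kept their side of the threshold, and some of those without a call changed sign. Replicate numbers recur across groups. Deviations of same-numbered libraries correlated at -0.113 to 0.11 over 9 pairs, with 1 pair over 0.1, so the numbers were not shown to pair the libraries. With the replicate block, 13 members were higher and 0 lower in Ad-JP2 against Ad-GFP, 4 and 22 in Ad-shJP2 against Ad-GFP, and 23 and 4 in Ad-JP2 against Ad-shJP2. Low members rest on few reads, about 9 in the shallowest library for Usp37, which limits the precision of their values.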
